A study of Mus musculus with 11 samples.

Results

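Genes that mark the vascular endothelium or signal to it were followed in RNA-seq libraries of cultured mouse fetal lung mesenchymal cells with and without Sp3, a transcription factor that binds GC boxes in promoters. The genes, chosen by symbol as a fixed set of markers, were Vegfa, Kdr, Flt1, Tek, Tie1, Cdh5, Pecam1, Emcn, Cd34 and Vwf, and all 10 were found among the 24062 genes of the count files. The cells were primary mesenchymal cells from lungs of embryonic day 15, isolated by their quick adhesion to plastic and passaged before RNA was taken. The 11 libraries came from 4 Sp3+/+ (WT), 4 Sp3+/- and 3 Sp3-/- cultures that carried no other allele or treatment according to the labels. The Sp3 deletion is a germline allele, so every cell type in a culture carried it. The labels do not say which libraries came from separate embryos or litters, so p-values measure only the spread between these libraries.

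The endothelium is the cell layer that lines blood vessels. Endothelial cells receive vascular endothelial growth factors through the receptor tyrosine kinases Kdr and Flt1 and angiopoietins through Tek, with Tie1 as its partner, and they are held together by the junction proteins Cdh5 and Pecam1. In the fetal lung, the mesenchyme is a source of Vegfa for the capillary plexus that grows within it, and freshly digested lung holds both cell types. Several of these genes are not exclusive to endothelium, since Cd34 is also made by fibroblast and progenitor populations, Vwf also by megakaryocytes, and Pecam1 also by leukocytes and platelets.

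Because Sp3 binds GC boxes, the stretches of 250 bases before the annotated transcription start were read from RefSeq sequence of GRCm38.p6, the assembly also called mm10 that the reads were aligned to. Windows were found for 7 of the 10 genes, with a window at each of 2 starts for Vegfa, and none was available for Vwf, Pecam1 and Cdh5. The GC box core GGGCGG was counted on both strands, so that CCGCCC also counts. It occurred 3 times before Flt1, 2 times before Kdr, 2 times and 1 time before the starts of Vegfa, and 0 times before Cd34, Tek, Tie1 and Emcn. Of the 32851 promoter windows of this length in the genome table, 32.7% held the core. Cores of the form AGGAAG (ETS family, 29.5% of windows) were found before Flt1 and Emcn, with 2 each, and before Cd34 and Tie1, with 1 each, and the form AGATAA (of the GATA family, 9.99%) only before the upstream start of Vegfa among these 7 genes. A match describes letters and not a bound site. The windows of the most abundant of these genes per exon length (Vegfa), of the least abundant (Tie1) and of Cd34 are shown from 5′ to 3′ on the strand of the gene, with the GC box core in capitals, to let their base composition be compared. Vegfa lies on the minus strand (window chr17:46032378-46032627), Tie1 on the minus strand (chr4:118489850-118490099) and Cd34 on the plus strand (chr1:194938571-194938820).
Vegfa: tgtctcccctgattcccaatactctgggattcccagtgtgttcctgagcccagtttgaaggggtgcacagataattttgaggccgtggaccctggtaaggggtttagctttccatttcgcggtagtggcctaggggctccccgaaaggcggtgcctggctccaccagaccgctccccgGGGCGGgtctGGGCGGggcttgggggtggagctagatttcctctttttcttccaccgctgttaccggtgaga
Tie1: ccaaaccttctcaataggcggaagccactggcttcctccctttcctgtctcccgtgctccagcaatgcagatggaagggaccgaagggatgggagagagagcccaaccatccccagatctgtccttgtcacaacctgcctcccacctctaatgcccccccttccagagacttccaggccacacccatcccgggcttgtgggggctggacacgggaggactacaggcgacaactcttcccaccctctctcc
Cd34: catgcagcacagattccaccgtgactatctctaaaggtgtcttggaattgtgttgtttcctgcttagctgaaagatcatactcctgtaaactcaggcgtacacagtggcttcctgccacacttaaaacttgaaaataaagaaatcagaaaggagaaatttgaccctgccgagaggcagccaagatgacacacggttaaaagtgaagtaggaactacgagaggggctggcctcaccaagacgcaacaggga
Guanine and cytosine made up 59.2% of the window of Vegfa, 60.4% of that of Tie1 and 46.4% of that of Cd34, and the core was absent from the windows of Tie1 and Cd34.

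The reads counted on genes numbered between 14113788 and 35351093 in WT, 13842791 and 59297495 in Sp3+/- and 9849111 and 45630738 in Sp3-/- libraries, and levels are given as reads per 1e+06 of these reads (CPM) after TMM scaling. A count of 3, taken as the floor that 0 reads allow, was worth 0.300 CPM in the shallowest library, Sp3-/- 697-5, and 0.0512 CPM in the deepest, Sp3+/- 685-5, for counting error only. Libraries are named by the numbers in their titles, whose meaning the labels do not give. Titles also end in a suffix that the labels do not explain: all 3 Sp3-/- libraries, WT 468-4 and Sp3+/- 697-4 carry none in their title, and the other 6 carry a 2 or a 3. The file name of 697-4 does carry a 2. Genotype and suffix were therefore nearly confounded. Sp3 itself measured 6.37 ± 0.35 log2 CPM in WT (SD, n = 4), 5.91 ± 0.20 in Sp3+/- (n = 4) and 4.10 ± 0.21 in Sp3-/- cells (n = 3), in the order of the labels. A list of 10 genes of fetal lung mesenchyme was led by Fn1, Col1a1 and Col1a2. It summed to between 10471 CPM, in Sp3-/- 697-5, and 36984 CPM, in WT 697-3. In Sp3-/- 697-5 a list of 10 macrophage and leukocyte genes summed to more, 10586 CPM, so the mesenchymal genes did not lead in every library.

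The 10 genes covered a range from abundant to nearly undetected. In bulk RNA, fewer cells of a type and less RNA per cell cannot be told apart, which holds for every level given here. Divided by the length of the gene's annotated exons, the median level over the 11 libraries was highest for Vegfa, at 30.0 CPM per kb of exon, followed by Kdr with 3.77 and Cd34 with 1.04. Tek (0.871 CPM per kb), Vwf (0.369), Flt1 (0.243) and Emcn (0.207) came next, and Cdh5 (0.0905), Pecam1 (0.0273) and Tie1 (0.00808) were lowest. Only the lead of Vegfa over Kdr separated neighbours in this order without overlap, since each Vegfa value, from 20.5 CPM per kb upward, lay above the highest Kdr value, 6.94. Every other pair of neighbours overlapped between libraries. The order thus put a secreted ligand and its receptor first and the junction genes Cdh5 and Pecam1 and the receptor Tie1 last. Of the 20 other endothelial genes listed, some were read in every library, led by Ptprb (37.5 to 156 CPM) and Eng (20.2 to 90.8 CPM), with Ecscr at 1.40 to 21.4 CPM and Esam at 2.22 to 21.4 CPM. At the other end, Gpihbp1 had 0 reads in all 11 libraries, and Cldn5, a tight junction protein of endothelium, had 0 reads in 9 and 1 and 2 reads in the others.

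**Figure D1:**
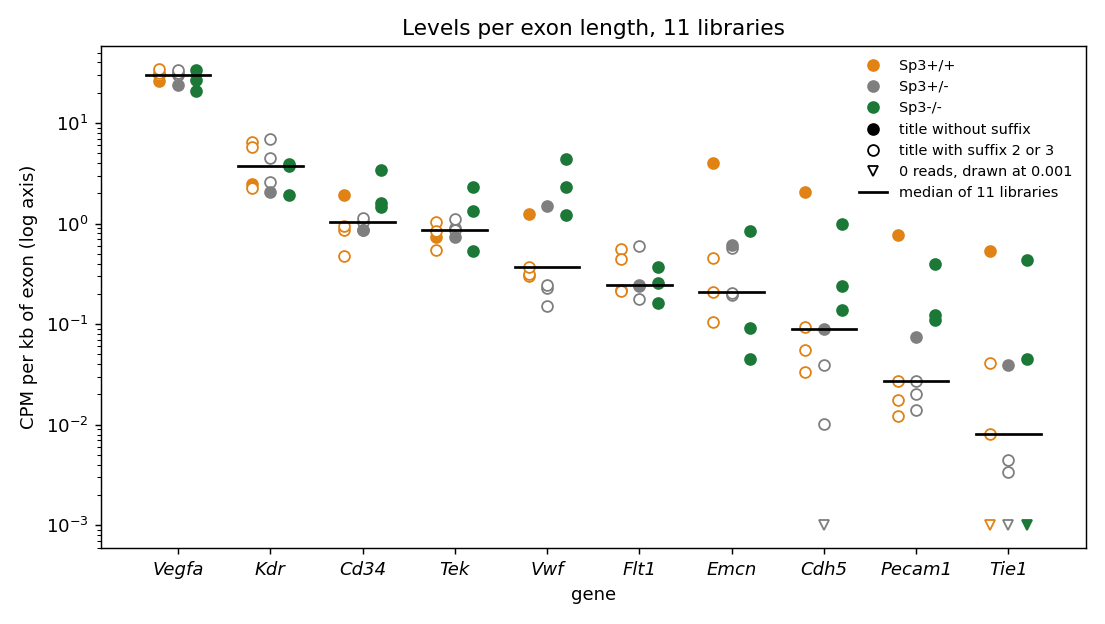
CPM per kb of annotated exon on a log axis for the 10 genes, ordered by their median over 11 libraries (black bars). Each point is a library, coloured by genotype and filled where its title has no suffix, and triangles mark 0 reads. Vegfa stands above all others, and for Cdh5, Pecam1 and Tie1 the filled points of WT 468-4 and Sp3-/- 685-1 are the highest of their genotypes.

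Vegfa, the growth factor that endothelial cells follow and depend on, was the steadiest of the 10. It measured 112, 127, 136 and 148 CPM in WT libraries, 129, 136, 146 and 102 CPM in Sp3+/- libraries and 144, 114 and 88.3 CPM in Sp3-/- libraries. The genotypes overlapped, and the highest library was only 1.68 times the lowest. The log2 fold change of Sp3-/- against WT was -0.19 (standard error 0.17, adjusted p = 0.440, edgeR). Every test named edgeR here is its quasi-likelihood F-test, with p-values adjusted after Benjamini and Hochberg for the number of genes tested, and a gene is called at an adjusted p below 0.05. Leaving out each of the 7 libraries in turn moved this log2 fold change between -0.38 and -0.04.

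Kdr, the main signalling receptor for Vegfa, was read at levels well above the floor in every library. Its values were 22.6, 58.9, 53.0 and 20.6 CPM in WT, 63.8, 40.8, 23.7 and 18.9 CPM in Sp3+/- and 17.6, 35.8 and 34.6 CPM in Sp3-/- libraries. The spread within WT, from 20.6 to 58.9 CPM, exceeded the difference between genotypes (log2 fold change of Sp3-/- against WT -0.40, standard error 0.46, adjusted p = 0.551, edgeR). Kdr and Cdh5 did not peak in the same libraries: Kdr was lowest in Sp3-/- 685-1 and ranked 8 of 11 in WT 468-4, the pair with the most Cdh5 reads.

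Flt1, a receptor that binds Vegfa and in its soluble form traps it, ranged from 2.24 CPM in Sp3-/- 685-1 to 8.13 CPM in Sp3+/- 685-7. WT libraries held 2.94 to 7.60 CPM and Sp3-/- libraries 2.24, 5.08 and 3.50 CPM, which overlapped (log2 fold change -0.45, standard error 0.45, adjusted p = 0.494, edgeR).

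Tek, the angiopoietin receptor, measured 4.38, 6.22, 5.10 and 3.29 CPM in WT, 5.38, 6.73, 5.23 and 4.46 CPM in Sp3+/- and 13.9, 8.01 and 3.20 CPM in Sp3-/- libraries. Both the highest and the lowest library were Sp3-/-, 685-1 and 697-5, so that the genotype held the widest spread (SD 1.06 log2 CPM, against 0.38 in WT and 0.24 in Sp3+/-). The log2 fold change against WT was 0.83 (standard error 0.44, adjusted p = 0.215, edgeR). Tie1, the orphan partner of Tek, was near the floor. Its reads numbered 94, 3, 1 and 0 in WT, 0, 1, 1 and 4 in Sp3+/- and 77, 10 and 0 in Sp3-/- libraries. Only WT 468-4 and Sp3-/- 685-1 held more than 10 reads.

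Cdh5, the cadherin of endothelial junctions, was also carried by a few libraries. Its reads numbered 318, 6, 6 and 5 in WT, 0, 10, 2 and 8 in Sp3+/- and 156, 46 and 6 in Sp3-/- libraries. That amounted to 8.93 CPM in WT 468-4, 4.37 CPM in Sp3-/- 685-1 and 1.04 CPM in Sp3-/- 697-2, whereas the other 8 libraries lay at or below 0.601 CPM. Pecam1, an adhesion molecule of endothelium, leukocytes and platelets, had its highest levels in the same 3 libraries in the same order, with 7.69, 4.01 and 1.24 CPM. In the other WT libraries it lay at 0.273, 0.121 and 0.178 CPM, in Sp3+/- libraries at 0.142, 0.273, 0.201 and 0.744 CPM and in Sp3-/- 697-5 at 1.10 CPM.

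WT 468-4 alone thus held much of what was read of these genes. Its share of the CPM summed over 11 libraries was 54.8% for Emcn, 54.6% for Cdh5, 48.2% for Pecam1 and 47.9% for Tie1, against 8.08% for Vegfa, 5.79% for Kdr, 6.30% for Flt1 and 6.65% for Tek. Emcn, a sialomucin of capillary and venous endothelium, measured 26.6 CPM in WT 468-4 and 1.37, 0.688 and 3.02 CPM in the other WT libraries. Sp3+/- libraries held 1.27, 1.33, 3.80 and 4.02 CPM, and Sp3-/- libraries 5.52, 0.609 and 0.300 CPM. Its reads per read of Cdh5 were 2.98 in WT 468-4 and 1.26 in Sp3-/- 685-1, but 0.587 in Sp3-/- 697-2 (27 reads of Emcn) and 20.4 in WT 697-3 (5 reads of Cdh5), so that the ratio between these 2 genes was not the same in all libraries.

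None of Tie1, Cdh5, Pecam1 and Emcn differed between Sp3-/- and WT cells in this test. Log2 fold changes were 0.17 (standard error 1.57) for Tie1, -0.27 (1.41) for Cdh5, 0.02 (1.37) for Pecam1 and -1.84 (1.44) for Emcn, with adjusted p of 0.949, 0.905, 0.994 and 0.387 (edgeR). These standard errors leave changes of several fold in either direction undetectable. Without WT 468-4, the log2 fold changes of Cdh5 and Pecam1 became 3.04 and 3.54 (adjusted p = 0.0384 and 0.0119, edgeR), that of Tie1 3.78 (0.121) and that of Emcn 0.37 (0.809). Without Sp3-/- 685-1, those of Tie1, Cdh5, Pecam1 and Emcn were -2.24, -1.54, -0.86 and -3.99, and none was called. Leaving out WT 468-4 thus brought calls for Cdh5 and Pecam1 and turned the direction of Cdh5 and Emcn, and leaving out Sp3-/- 685-1 turned that of Tie1 and Pecam1. Calls also rose across all genes without WT 468-4, to 4179 of 13970 tested from 2599 of 14025, so the gain was not particular to these genes.

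Cd34, a sialomucin of endothelium and of mesenchymal progenitors, was detected throughout. WT libraries held 23.0, 10.4, 11.3 and 5.66 CPM, Sp3+/- libraries 12.5, 13.5, 10.2 and 10.2 CPM and Sp3-/- libraries 40.5, 17.4 and 19.2 CPM. All 3 Sp3-/- values lay above the 4 Sp3+/- values and above 3 of the 4 WT values, and only WT 468-4 overlapped with them. The log2 fold change against WT was 1.02 (standard error 0.48, adjusted p = 0.168, edgeR), and 1.49 without WT 468-4 (adjusted p = 0.0338, edgeR), where 4179 of all 13970 genes tested were called. The log2 fold change of Cd34 stayed positive in all 19 alternative fits, between 0.15 and 1.49, and was called in 2 of them.

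Vwf, the multimeric glycoprotein that endothelium stores and secretes to bind platelets, showed the clearest difference. WT libraries held 744, 74, 131 and 208 reads, or 20.9, 5.06, 5.30 and 6.16 CPM. Sp3+/- libraries held 36, 224, 182 and 504 reads, or 2.55, 3.82, 4.07 and 25.0 CPM. Sp3-/- libraries held 725, 3226 and 390 reads, or 20.3, 72.8 and 39.1 CPM. Sp3-/- 697-2 and 697-5 were above all other libraries, whereas Sp3-/- 685-1 was level with WT 468-4 and below Sp3+/- 697-4. Vwf was 4.67-fold higher in Sp3-/- than in WT cells (log2 fold change 2.22, standard error 0.63, adjusted p = 0.0478, edgeR) and was the 1 gene of the 10 that was called. Of all 14025 genes tested in this comparison, 2599 (18.5%) were called, and genotypes did not overlap for 31.3% of genes but for 0 of the 10.

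The call of Vwf lay close to the threshold. It was lost when any of WT 685-2, 697-1 or 697-3 or Sp3-/- 697-2 or 697-5 was left out (log2 fold changes 1.66 to 2.29, adjusted p 0.0888 to 0.163, edgeR) and kept without WT 468-4 (2.99, adjusted p = 0.0065) or Sp3-/- 685-1 (2.56, adjusted p = 0.0417). Its direction was the same in all 19 alternative fits, 9 of which called it, with adjusted p from 0.00144 to 0.672. With the title suffix as a covariate over 11 libraries its log2 fold change was 0.71 (adjusted p = 0.365, edgeR). Levels of Vwf split by title suffix without overlap: the 5 libraries without a suffix in their title held 20.3 to 72.8 CPM and the 6 with a suffix 2.55 to 6.16 CPM, WT 468-4 and Sp3+/- 697-4 included in the former. Counted by its file name instead, 697-4 (25.0 CPM) would be suffixed and overlap Sp3-/- 685-1 (20.3 CPM). Pecam1 was the other gene of the 10 to split by title suffix, at 0.744 to 7.69 CPM against 0.121 to 0.273 CPM. Such a split was seen for 20.3% of the 14130 genes tested over 11 libraries. Within the libraries whose titles share the number 697, which differ in suffix too, the log2 fold change of Vwf was 3.29 and that of Pecam1 2.93 (adjusted p = 0.00293 and 0.0248, edgeR, 2 WT and 2 Sp3-/- libraries). The fit of the 697 libraries called 2917 of 13832 genes tested. No genotype comparison within the suffixed libraries could include Sp3-/-.

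**Figure D2:**
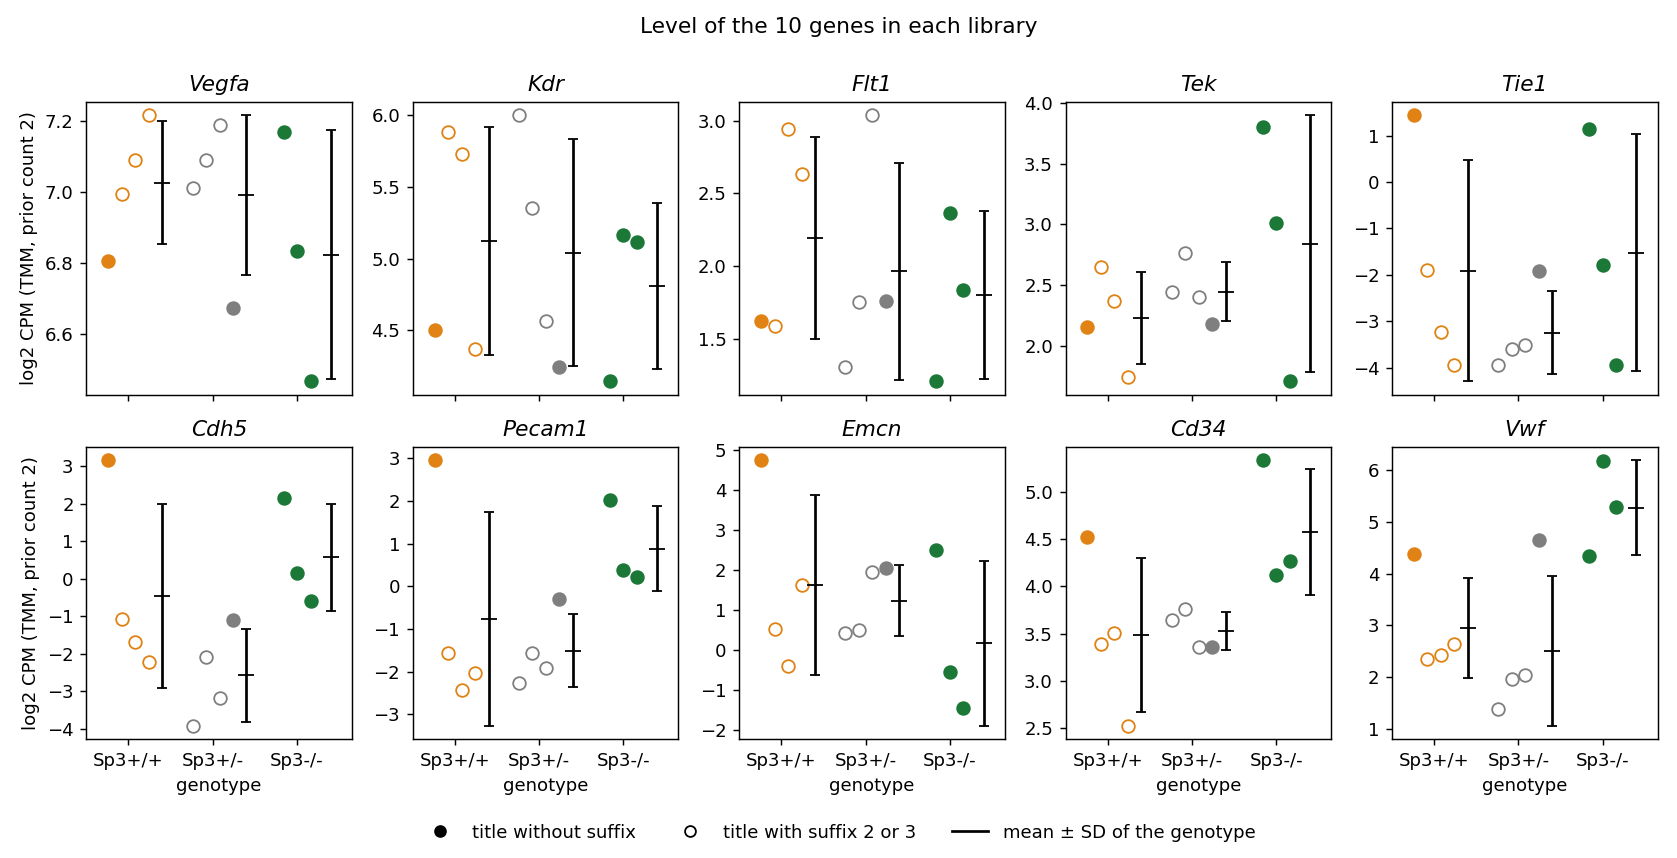
Log2 CPM (TMM scaling, prior count 2) of each of the 10 genes in each library, by genotype, with the mean ± SD of the genotype beside the points; vertical scales differ between panels. Filled points are libraries without a suffix in their title. For Vwf and Pecam1 all filled points lie above all open points, and for Tie1, Cdh5, Pecam1 and Emcn WT 468-4 is the highest library.

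**Figure D3:**
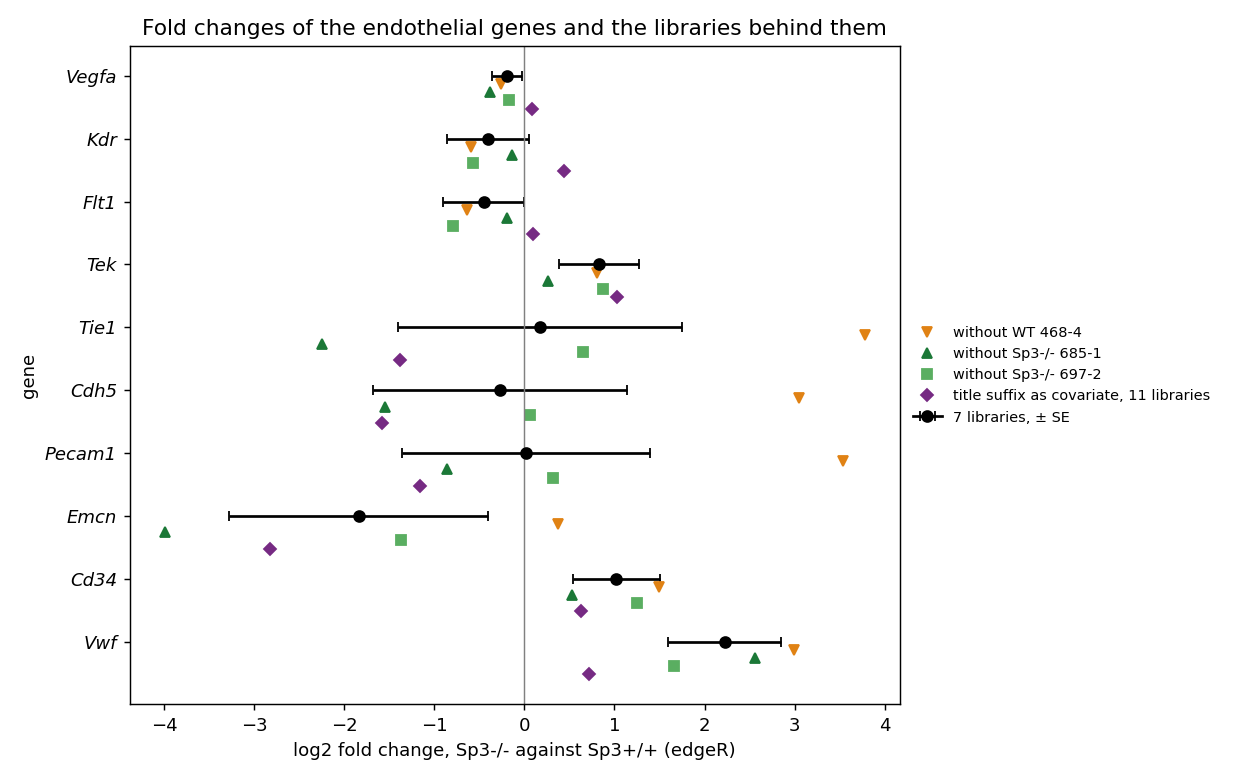
Log2 fold change of Sp3-/- against WT for the 10 genes from edgeR, with the standard error (black), and the same value without WT 468-4, without Sp3-/- 685-1, without Sp3-/- 697-2 and with the title suffix as a covariate. Values of Vegfa, Kdr, Flt1 and Tek stay close together, those of Tie1, Cdh5 and Pecam1 run from below 0 to above 3, and Vwf is above 0 throughout.

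Across libraries, the level of Vwf ran closest to those of leukocyte genes. Over the 11 libraries, the genes whose log2 CPM was most like that of Vwf, of 11203 genes compared, were Itgam (Pearson r 0.995, Spearman rho 0.991), Dock2, Plek, Iqgap2 and Cd93, with r between 0.991 and 0.995. Itgam encodes an integrin chain of myeloid cells, Dock2 a migration factor of leukocytes and Plek the major kinase C substrate of platelets and leukocytes, and Cd93 is made by myeloid cells and endothelium. These values describe 11 libraries that share depth, suffix and genotype structure. Reads of Vwf per read of Ptprc, the pan-leukocyte phosphatase, lay between 0.295 and 0.548 in all libraries, 1.86-fold apart, while Vwf itself spanned 28.6-fold. Against the 10 macrophage and leukocyte genes, the highest ratio of Vwf over the 11 libraries was 1.64 (Csf1r) to 2.66 (Lyz2) times the lowest. For the other genes of the 10 with reads in every library the same quantity was at least 15.7 (both Cd34 and Pecam1 came closest). Reads of Vwf per read of Cdh5 were 2.34 in WT 468-4 and 4.65 in Sp3-/- 685-1. They were 70.1 in Sp3-/- 697-2 (46 reads of Cdh5), 65.0 in Sp3-/- 697-5 (6 reads) and 63.0 in Sp3+/- 697-4 (8 reads). WT 685-2, 697-1 and 697-3 and Sp3+/- 685-5 lay between, at 12.3, 21.8, 41.6 and 22.4, each with 10 reads of Cdh5 or fewer.

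The macrophage and leukocyte list itself was higher in Sp3-/- libraries, all 10 genes by value and 4 by the test, with a median log2 fold change against WT of 2.39, where the median of all genes was -0.003. The share of all genes tested that were called higher was 8.76%. Lyz2, a lysozyme of macrophages (log2 fold change 2.73, adjusted p = 0.0423, edgeR), and the complement chains C1qa (2.70, 0.0270), C1qb (2.50, 0.0435) and C1qc (2.56, 0.0441) were the 4 called, and Cd68 had a value of 2.27 (0.0688). The summed CPM of the list was 3324, 694, 603 and 893 in WT, 365, 582, 668 and 3107 in Sp3+/- and 3173, 11731 and 10586 in Sp3-/- libraries, so that libraries without a suffix held 3107 CPM or more and those with a suffix 893 CPM or less. None of the 10 list genes was at 0 in any library. The part of these cells in the level of Vwf was not tested.

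**Figure D4:**
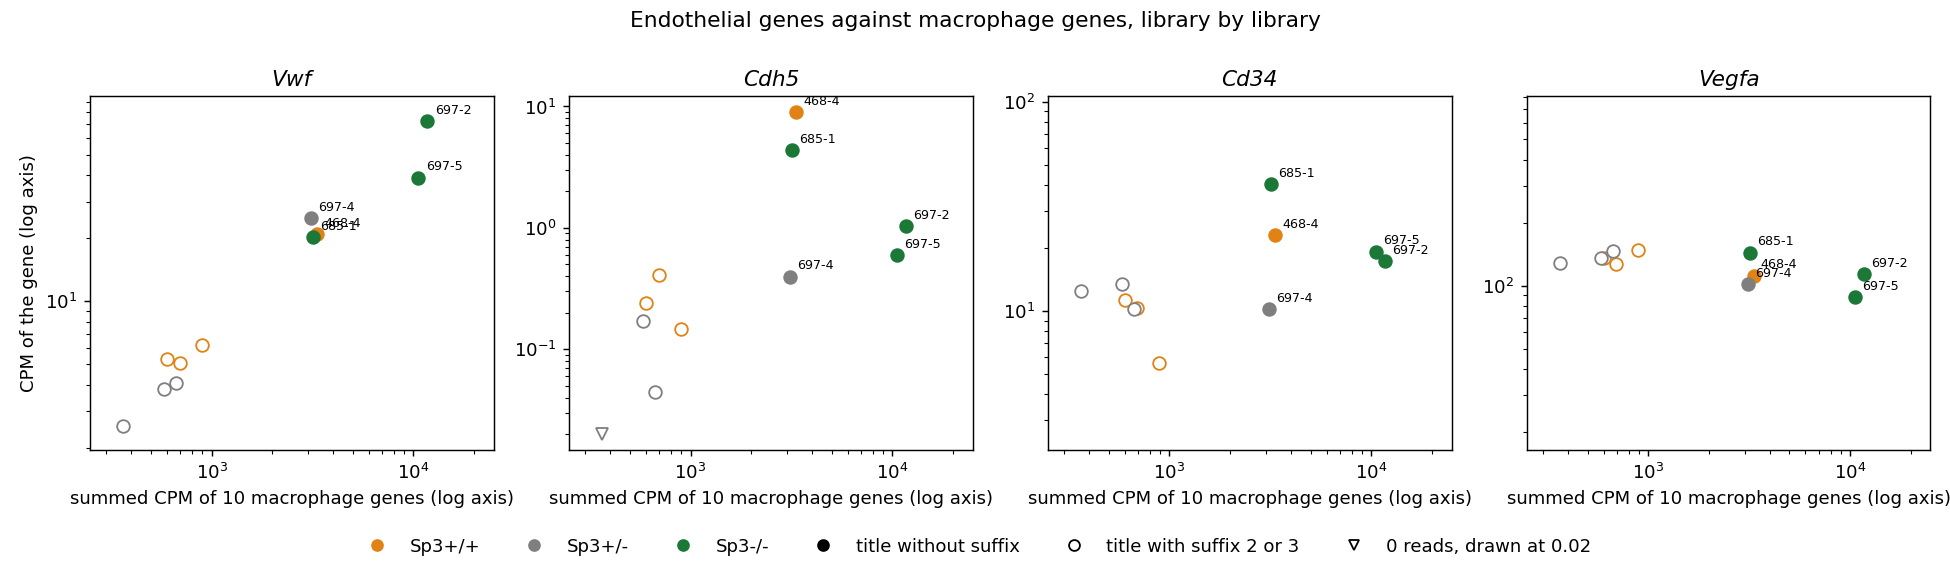
CPM of Vwf, Cdh5, Cd34 and Vegfa (vertical) against the summed CPM of 10 macrophage and leukocyte genes (horizontal) in the 11 libraries, both on log axes, coloured by genotype and filled where the title has no suffix. Vwf follows the sum across all libraries, Cdh5 is highest in WT 468-4 and Sp3-/- 685-1 at sums of 3324 and 3173 CPM, and Vegfa is nearly flat.

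The genes most like each of the other 9 differed from gene to gene. Lipg, an endothelial-type lipase, was most like Tek (r 0.976), followed by Fip1l1, Pdzd2, Sox6 and Col16a1 (all r 0.965 or more). Abca8b (r 0.952) and Bmp6 (0.937) were most like Cd34, Slc22a23 most like both Pecam1 (0.981) and Cdh5 (0.911), Serpinb8 most like Kdr (0.870), Zfp53 most like Flt1 (0.919), Dfna5 most like Tie1 (0.920), Psph most like Emcn (0.937) and Zbtb24 most like Vegfa (0.947).

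Genes of megakaryocytes and platelets, which also hold Vwf, were low. A list of 8 megakaryocyte and platelet genes summed to between 7.62 and 13.0 CPM in every library. Of the 4 that could be tested in Sp3-/- against WT, Pf4 was called higher (log2 fold change 2.08, adjusted p = 0.0333, edgeR), and Gp1bb (-2.50, 0.0138) and Itga2b (-0.88, 0.0452) lower, while Gp1ba had a value of -0.20 (0.537), with a median of the list of -0.54. The shares of all genes called higher and lower were 8.76% and 9.77%. Pf4 was highest in Sp3-/- 697-2 and 697-5, at 8.21 and 4.21 CPM. Of the erythroid genes, 1 of 8 passed the filter, Alas2 (1.66, adjusted p = 0.0303, edgeR), and the list summed to at most 16.1 CPM. That maximum, in Sp3+/- 685-5, held 16.0 CPM of Alas2. The globin genes Hba-a1, Hba-a2, Hbb-bs and Hbb-bt had 0 reads in all 11 libraries, so the sum is no measure of their RNA.

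Other endothelial genes went in both directions. Of a list of 20, 14 passed the filter, 2 were called higher and 4 lower in Sp3-/- than in WT cells, and the median log2 fold change was -0.50. Of all genes tested, 8.76% were called higher and 9.77% lower in this comparison. Eng, a co-receptor for TGF-beta of endothelium and mesenchymal cells, fell from 90.8, 73.0, 69.1 and 73.5 CPM in WT to 20.9, 20.2 and 24.6 CPM in Sp3-/- libraries, without overlap (log2 fold change -1.81, standard error 0.14, adjusted p = 0.0061, edgeR). Erg, an ETS factor of endothelium (-3.30, adjusted p = 0.0291), Clec14a, an endothelial surface lectin (-2.80, 0.0323), and Ecscr, an endothelial membrane protein (-2.07, 0.0266), were lower in the same edgeR test, each from fewer than 800 reads in any library. The 2 called higher were Esam, an adhesion molecule of endothelium and platelets (1.89, adjusted p = 0.0288), and Robo4 (1.77, 0.0330), which are named here after their values were seen. Ptprb, the phosphatase that acts on Tek and the most abundant of the list, had a log2 fold change of -0.74 (adjusted p = 0.340, edgeR). The summed CPM of the list was 146 to 267 in WT, 160 to 242 in Sp3+/- and 82.3 to 151 in Sp3-/- libraries.

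Of the 9 ligands and co-receptors that act with these receptors, Angpt2, the angiopoietin that opposes or weakly activates Tek, was the 1 called in Sp3-/- against WT cells. For this and the lymphatic list below, the shares of all genes called higher and lower were 8.76% and 9.77%. Angpt2 measured 39.0, 98.1, 119 and 45.3 CPM in WT, 130, 82.6, 60.1 and 15.6 CPM in Sp3+/- and 6.56, 19.0 and 14.3 CPM in Sp3-/- libraries (log2 fold change -2.50, standard error 0.54, adjusted p = 0.0254, edgeR). WT and Sp3-/- did not overlap, but Sp3+/- 697-4, the Sp3+/- library without a suffix, lay within the Sp3-/- range. Nrp1 and Nrp2, the neuropilins that hold Vegfa at its receptors, were the most abundant of this list, with values of -0.23 (0.580) and 0.47 (0.186) in the same test, and the median of the 9 was -0.04. Of 4 lymphatic genes, Flt4, the receptor of Vegfc, was lower (-1.26, adjusted p = 0.0241, edgeR) and Pdpn, which mesothelial and stromal cells also make, higher (0.96, 0.0257), while Prox1, which defines lymphatic identity, had a value of 0.17 (0.732), and the list median was 0.31.

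Genes of cells around vessels and of other cells of the lung also differed. Beside the calls that follow, 8.76% of all genes tested were called higher in Sp3-/- than in WT cells and 9.77% lower. Of 7 pericyte genes, 4 were called lower, among them Mcam (log2 fold change -2.58, adjusted p = 0.0093, edgeR), the platelet-derived growth factor receptor Pdgfrb (-2.13, 0.0114) and Rgs5 (adjusted p = 0.0177). Cspg4 had a value of -1.23 (0.0698), the list median was -1.23, and 1 gene of the list was higher by value. The summed CPM of the list was 604 to 1173 in WT and 186 to 245 in Sp3-/- libraries. Of the 10 mesenchymal genes, Foxf1 and Vim were called lower (-1.61 and -0.46, adjusted p = 0.0497 and 0.0423, edgeR), with a list median of -0.75. The sum of this list also split by title suffix without overlap, at 10471 to 28564 CPM without a suffix and 33105 to 36984 CPM with one. WT 468-4 (25381 CPM) and Sp3+/- 697-4 (25391 CPM) lay within the Sp3-/- range, so genotype and suffix cannot be told apart here. With 697-4 counted by the suffix of its file name, this split would be lost. Of 7 mesothelial genes tested, all 7 were higher by value and 4 were called higher, among them Msln (2.44, adjusted p = 0.0431), Upk1b (1.79, 0.0340) and Bnc1 (1.79, 0.0319, edgeR). Upk3b, the most abundant, had a value of 0.98 (0.0804), and the list median was 1.63. Mesothelial sums were 744 to 1729 CPM in WT and 2113 to 6001 CPM in Sp3-/- libraries, highest in 685-1, where Cd34 was also highest. The 2 did not run together throughout: WT 468-4 held 23.0 CPM of Cd34 at a sum of 1729 CPM. Sp3+/- 685-5 held 13.5 CPM of Cd34 at a sum of 2549 CPM. The part of mesothelial cells in the level of Cd34 was not tested. Of 6 epithelial genes tested, 4 were higher by value and 3 were called higher, Cdh1 (4.81, adjusted p = 0.0202), Epcam (3.12, 0.0379) and Krt18 (1.73, 0.0235, edgeR). Krt8 had a value of 2.59 (0.0620), while Nkx2-1 and Sftpc were lower by value (-1.85 and -4.72, adjusted p = 0.431 and 0.227, edgeR). Nkx2-1 had at most 17 reads and Sftpc at most 66, each in WT 685-2. The list median was 2.16, from a summed CPM of at most 151. Of 10 hypoxia-responsive genes, a group that Vegfa belongs to, 2 were higher by value and 5 were called lower. Among those called were Adm (-1.91, adjusted p = 0.0279), Pgk1 (-1.11, 0.0197), P4ha1 (-0.82, 0.00997) and Ldha (-0.64, 0.0285, edgeR). Ndrg1 had a value of 0.64 (0.0681), and the list median was -0.68, beside the log2 fold change of -0.19 of Vegfa.

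Loss of 1 Sp3 allele gave no call. Between Sp3+/- and WT, edgeR called 0 of the 10 genes and 0 of all 14130 genes (0%), as did DESeq2 and limma-voom, and 246 genes (1.74%) had an unadjusted p below 0.05. Cdh5 was the 1 gene of the 10 among these (log2 fold change -4.03, standard error 1.47, unadjusted p = 0.0198 from edgeR's fit across all genes), with WT 468-4 as the only library of either genotype above 0.410 CPM. Without WT 468-4 its log2 fold change was -0.71. Log2 fold changes of Vegfa (-0.04, standard error 0.15), Kdr (-0.08, 0.46), Vwf (-0.11, 0.77), Cd34 (-0.13, 0.39), Flt1 (-0.20, 0.45) and Tek (0.20, 0.36) were smaller than their errors. Those of Pecam1 (-2.68, standard error 1.27), Tie1 (-3.90, 1.79) and Emcn (-1.62, 1.14) were larger than their errors, with unadjusted p of 0.0596, 0.0530 and 0.183 (edgeR), and WT 468-4 was the highest library for each. Without WT 468-4, the values of Pecam1 and Emcn were 0.84 and 0.60.

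Between Sp3-/- and Sp3+/- cells, edgeR called 0 of the 10 genes, whereas 3607 of the 14130 genes tested were called (25.5%). With the same Sp3-/- libraries as in the comparison with WT, log2 fold changes were 2.32 for Vwf (standard error 0.83, adjusted p = 0.0629, edgeR), 1.15 for Cd34 (0.42, 0.0670), 3.76 for Cdh5 (1.52, 0.0920), 2.70 for Pecam1 (1.33, 0.157) and 4.07 for Tie1 (1.84, 0.127). The 3 Sp3-/- libraries lay above all 4 Sp3+/- libraries for Cd34, Cdh5 and Pecam1, that is for 3 of the 10 genes, where 34.0% of all genes tested did not overlap between these genotypes. For Cdh5 the separation rested on few reads, 6 in Sp3-/- 697-5 (0.601 CPM) against 8 in Sp3+/- 697-4 (0.397 CPM). For Pecam1 it rested on 11 reads (1.10 CPM) against 15 (0.744 CPM) in the same 2 libraries. Vwf overlapped because Sp3+/- 697-4 exceeded Sp3-/- 685-1, and without 697-4 its log2 fold change was 3.63 (adjusted p = 0.00689, edgeR). Tek was called when Sp3-/- 697-5 was left out (0.99, adjusted p = 0.0451, edgeR). DESeq2 called Vwf, Cd34 and Cdh5, a fit of these 2 genotypes alone Cd34, Pecam1 and Cdh5, and limma-voom Vwf. In the same order, these fits called 4633 of 14130, 3227 of 13978 and 3709 of 14130 genes tested. Of the macrophage and leukocyte genes 9 of 10 were called higher in this comparison (median log2 fold change 2.81). Vegfa, Kdr, Flt1 and Emcn had log2 fold changes of -0.15, -0.33, -0.26 and -0.21, each smaller than its standard error.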

How the data were processed

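TruSeq libraries of total RNA from 11 cultures were read as 50 bp single ends. Per the labels and the methods of the study, the authors checked reads with FastQC 0.10.1, aligned them to mm10 with STAR 2.4.5a with htseq-count used for counting, and the deposited files hold these raw counts by gene symbol without normalization. The strand setting and annotation version are not given in the sources used here. The 5 tallies of reads outside genes, 38.4% to 40.9% of each library, were left out.

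Tests were run with edgeR 4.0.16 in R 4.3.3 on genes that exceeded 1 CPM in any library fitted (TMM, robust quasi-likelihood F-test, Benjamini-Hochberg adjustment, threshold 0.05). Sp3-/- against WT used 7 libraries, and both comparisons that involve Sp3+/- all 11. Standard errors are those implied by the F statistic. Log2 CPM used a prior count of 2. Exon lengths are the union of annotated exons of a GENCODE annotation of GRCm39, while the counts are on mm10. Alternatives were DESeq2 1.42.0, limma-voom of limma 3.58.1 (also with a correlation estimated within first title numbers), other scalings and filters, other sets of libraries, blocks and each library left out, and 2 of these were chosen after seeing the data (the 697 libraries alone, and the suffix covariate with 697-4 given the suffix of its file name). The edgeR step was tested on simulated counts with known changes.

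The 10 genes, the 11 gene lists and the tests were chosen with earlier results of these data known. Named were the 10 genes, Sp3, of each list the 3 most abundant and up to 3 called genes with the largest change, and the 5 genes most like each of the 10 by Pearson r (mean above 2 log2 CPM), of which the report gives the leading ones. Hbb-y, which the rule also names, lay at or below 0.300 CPM in every library, and 1 listed gene is not reported here. Gpihbp1, Cldn5, Esam, Robo4, Ptprc, Csf1r, Nkx2-1, Sftpc, Hba-a1, Hba-a2, Hbb-bs and Hbb-bt fall outside the rule and were named after their values were seen. Figures were drawn with matplotlib 3.10.9.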

Additional observations from a re-analysis of the deposited data

Results flagged for a closer look

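WT 468-4 stood apart from the other 3 WT libraries for 2 of the 10 genes. Vwf measured 4.39 log2 CPM there, against 2.64 in the nearest WT library, a gap of 0.861 of the whole range of the 4. Pecam1 measured 2.96 log2 CPM there, against -1.56 in the nearest, a gap of 0.840 of the range. Both exceed Dixon's 95% critical value for 4 samples. Chance sets off this rule in about 1 in 20 groups, and 20 groups of 4 libraries were tested (10 genes in WT and in Sp3+/-).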

How the results depend on the processing

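For Sp3-/- against WT, the number of all genes called was 2599 and that of the 10 genes 1 (Vwf). The numbers moved to 4297 with DESeq2 (Vwf), to 4031 and 5 with the first title number as a replicate block (Vwf, Cd34, Pecam1, Cdh5, Tie1), to 3977 and 0 with all libraries in the fit, to 1458 and 0 with the suffix covariate, to 272 and 0 with that covariate and 697-4 given suffix 2, to 0 and 0 in the libraries without a suffix (a single WT library against 3 Sp3-/- libraries, assumed to vary like them, so that the absence of calls says nothing about stability), and to 2 of the 10 (Vwf, Pecam1) within the 697 libraries. Of all genes tested, the fit of the 697 libraries called 2917 of 13832 and the replicate block 4031 of 14025. Of the 10, 0 were called by limma-voom (Vwf adjusted p = 0.0559) and without a filter (0.0742, edgeR). With single libraries left out, 282 (without Sp3-/- 697-2) to 4179 genes (without WT 468-4) and 0 to 4 of the 10 were called, with 893, 766, 802 and 1408 genes without WT 685-2, 697-1, 697-3 and Sp3-/- 697-5. For Sp3-/- against Sp3+/-, 3 of the 10 were called with DESeq2, with the replicate block and with the compared genotypes alone. These fits called 4633 of 14130, 2956 of 14130 and 3227 of 13978 genes tested. With limma-voom, without and with a consensus correlation, 1 of the 10 was called, beside 3709 and 3691 of 14130 genes. The suffix covariate gave 919 genes of all, and 0 with 697-4 given suffix 2. Leaving out single libraries gave 1490 to 3706 genes and 0 to 1 of the 10. No alternative called any of the 10 for Sp3+/- against WT.

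The labels do not say whether libraries with the same first title number are paired. Deviations from the genotype mean of WT and Sp3-/- libraries with the same first number correlated at 0.298, 0.141, -0.088, -0.339 and 0.092, and those of other pairs at -0.331 to 0.317. With deviations taken within only 4 and 3 libraries, these values cannot decide whether a pairing exists. WT 468-4 is the only library of its number in that fit, so the replicate block leaves it without weight.

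Of 538 fold changes under an alternative, 59 had another sign than the value reported, 2 of them (Cdh5, without WT 468-4 and with the replicate block) at an adjusted p below 0.05 in edgeR. For Sp3-/- against WT, log2 fold changes of Cdh5 became 1.22 and 1.28 in limma-voom without and with a consensus correlation, 2.64 with the replicate block and 2.15 within the 697 libraries. With the suffix covariate, those of Pecam1, Kdr, Flt1, Tie1 and Vegfa became -1.16, 0.44, 0.098, -1.38 and 0.083, and in libraries without a suffix -1.84, 0.36, 0.25, -1.61 and 0.030. With single libraries left out they ran from -1.54 to 3.04 (Cdh5), -3.99 to 0.37 (Emcn), -0.86 to 3.54 (Pecam1) and -2.24 to 3.78 (Tie1).

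For Sp3+/- against WT, Cd34 became 0.026 and 0.034 in the limma-voom fits, 0.0090 with the suffix covariate and 0.38 among libraries with suffix 3, where Flt1, Emcn and Vegfa became 1.0e-04, 0.53 and 0.028. Vwf became 0.14 with the replicate block. With single libraries left out, ranges were -1.43 to 0.66 (Vwf), -0.38 to 0.35 (Cd34), -3.27 to 0.84 (Pecam1), -1.999 to 0.60 (Emcn), -0.49 to 0.19 (Kdr), -0.71 to 0.088 (Flt1) and -0.10 to 0.055 (Vegfa).

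For Sp3-/- against Sp3+/-, Pecam1, Kdr, Flt1 and Vegfa became -0.039, 0.54, 0.27 and 0.13 with the suffix covariate. Ranges with 1 library left out were -0.54 to 0.080 (Kdr), -0.60 to 0.25 (Flt1) and -2.37 to 0.25 (Emcn). The cause was not tested for any of these. A prior count of 0.5 moved the mean of Tie1 in Sp3+/- to -4.44 log2 CPM. Low counts limit Tie1, Cdh5 and Pecam1, each with 16 reads or fewer in at least 8 of the 11 libraries.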
